A study of Homo sapiens with 20 samples.

Results

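The genotype by wounding interaction is the difference between the response of GCN2KO cells to wounding and the response of WT cells to the same wounding, taken gene by gene on the log2 scale. It was fitted for the 16536 genes, of 57500 listed, that passed a filter on low counts, and 547 of them were called. RNA came from NTERT cells, an immortalized human keratinocyte line, in 4 groups of 5 libraries. WT cells, which in the study carry a control guide RNA, and GCN2KO cells were each left unwounded or subjected to high-density wounding (HDW). GCN2KO cells are a pool edited with CRISPR-Cas9 at the GCN2 gene in exon 2 or exon 12 and used at early passage, so the group is a mixture of edited alleles and not 1 clone. All groups were plated as confluent keratinocytes, and the study's wounding protocol differentiates the monolayer with calcium and serum beforehand. In HDW, a row of pipet tips is drawn across the monolayer in both directions so that a large share of the cells lie beside a gap, and RNA was taken 6 h later. The labels do not say whether the libraries of a group came from cultures grown on separate occasions, so the p-values measure the spread between these libraries.

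GCN2, the product of EIF2AK4, is a protein kinase that is activated when uncharged tRNAs accumulate and phosphorylates the initiation factor eIF2. Phosphorylated eIF2 lowers bulk translation while the mRNA of the transcription factor ATF4 is translated more, and ATF4 drives genes for amino acid synthesis, amino acid import and tRNA charging. This integrated stress response can also be entered through other eIF2 kinases. In skin, keratinocytes at a wound edge switch on stress keratins, growth factors and proteases and migrate as a sheet.

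An interaction was called where the difference of log2 fold changes was at least 1 in size at an edgeR adjusted p of at most 0.05. Each call was then sorted by the 2 responses behind it, where a gene is said to have risen or fallen after HDW if that response passed an adjusted p of 0.05. A response was lost where WT cells passed and GCN2KO cells did not, reduced where both passed in 1 direction with the smaller change in GCN2KO cells, and reversed where both passed in opposite directions. A gained response passed in GCN2KO cells only, and an enlarged one was the larger in GCN2KO cells. Separately, the start level was called shifted where unwounded GCN2KO cells differed from unwounded WT cells by 1 log2 unit or more, past the same adjusted p. In whole cultures, a change in the number of cells that express a gene and a change in its RNA per cell cannot be told apart.

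EIF2AK4 mRNA (chromosome 15, 39934115 to 40035591 of GRCh38) was lower in every GCN2KO library than in any WT library. The 5 WT unwounded libraries held 4404, 4152, 4555, 4287 and 4379 normalized read counts of EIF2AK4 and the 5 WT HDW libraries 4303, 4222, 4181, 4282 and 3980. GCN2KO unwounded libraries held 806, 859.9, 935, 906 and 962 and GCN2KO HDW libraries 935, 809.8, 858, 951 and 814. Unwounded, GCN2KO lay -2.28 (SE 0.057, adjusted p = 2.78e-19 by edgeR) log2 units from WT, and the transcript had no called interaction (0.02, SE 0.078, adjusted p = 0.904 by edgeR), whose sign turned when some single libraries were left out.

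The libraries held 14083504 to 34611570 counts on genes, and the shallowest was a WT unwounded library. All 8 keratinocyte markers were detected, with summed normalized read counts of 443058 to 615975, against at most 1043 for fibroblast, 643.7 for melanocyte, 1897 for immune and 38.65 for endothelial markers. In each group 2 of 7 melanocyte and 3 of 8 immune markers were at 0, and the rest were detected. TYR, SOX10 and CD207 were at 0 in every library. Of the 3 immune and 3 melanocyte markers that passed the filter, ITGAM alone had a called interaction, higher and lost. Immune markers, mostly CD14, summed to 1640 to 1897 in WT unwounded and 504.6 to 1303 in the other groups, and melanocyte markers to 130.4 to 209.4 in WT and 351.3 to 643.7 in GCN2KO libraries; their part in the interactions was not tested. Libraries of GCN2KO cells spread more than those of WT cells: the biological coefficient of variation was 0.0545 unwounded and 0.0625 wounded in WT, and 0.128 unwounded and 0.0844 wounded in GCN2KO libraries. A transcript length score, the median log2 level of the longest 10% of genes less that of the shortest 10%, was -0.038 to 0.041 in WT libraries and 0.057 to 0.209 in GCN2KO HDW libraries. In GCN2KO unwounded libraries it was -0.133, 0.159, -0.447, -0.033 and -0.398 for replicates 1 to 5, so replicates 3 and 5 stood apart on it. By squared count difference per gene relative to counting noise, GCN2KO HDW replicate 5 lay 15.98 to 40.8 from its group, the others 2.48 to 6.98 from each other. WT HDW replicate 2 lay 16.21 to 21.8 from replicates 1, 4 and 5. As both GCN2KO groups enter every interaction, counts are also given without GCN2KO unwounded replicates 3 and 5 and with the length score as a covariate. How much of a result such trends carry was not tested.

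**Figure D1:**
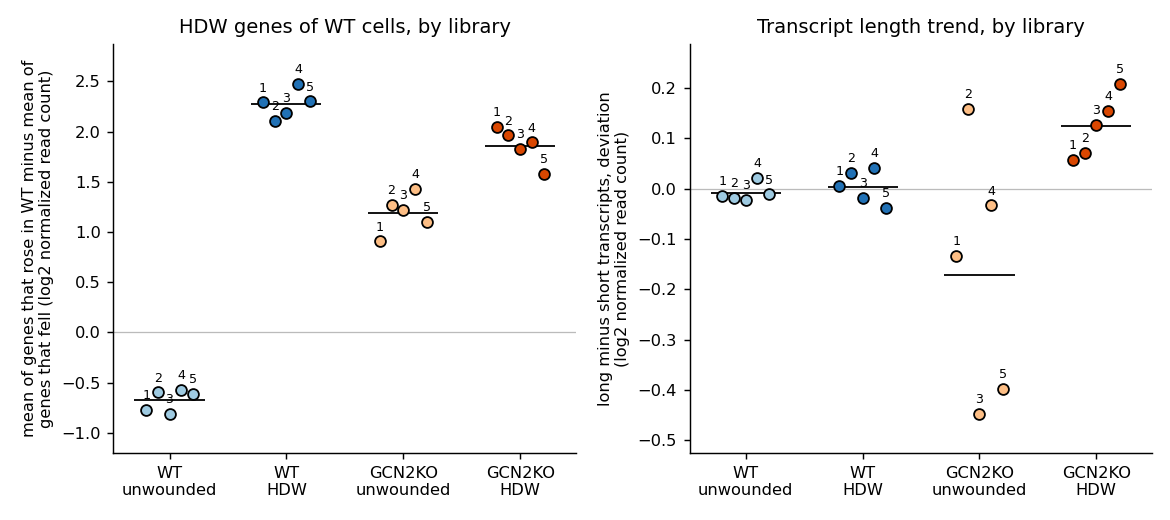
Each point is a library, numbered by replicate, with a line at the group mean of 5 libraries. Left, the mean log2 level of the 465 genes that rose in WT less that of the 288 genes that fell: GCN2KO unwounded libraries (0.905 to 1.429) lie between WT unwounded (-0.811 to -0.575) and WT HDW (2.104 to 2.477). GCN2KO HDW libraries (1.579 to 2.042) lie below WT HDW. The WT libraries shown chose these genes, so the gap between the WT groups is fixed by the choice, and no test was made. Right, the transcript length score, which is lowest in GCN2KO unwounded replicates 3 and 5.

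Wounding changed far fewer genes past the fold threshold in GCN2KO cells than in WT cells, and most called interactions were WT responses that were lost or reduced. HDW raised 465 genes in WT cells (2.81% of those tested) and lowered 288 (1.74%), together 4.55%. In GCN2KO cells it raised 89 (0.538%) and lowered 54 (0.327%), together 0.865%. At the adjusted p alone, which the sorting by kind used, 19.7% rose and 18% fell in WT cells, 37.7% in all, and 16.5% rose and 17.2% fell in GCN2KO cells, 33.7% in all. The interaction was called for 547 genes, 3.31% of those tested, of which 192 were higher (1.16%) and 355 lower (2.15%). At the adjusted p alone, 1851 were higher (11.2%) and 2075 lower (12.5%), together 23.7%. Of the 547, 350 responses were lost, 55 reduced, 74 reversed and 50 gained, none was enlarged and 18 could not be sorted. DESeq2 gave 171 higher and 327 lower interactions, and also no enlarged response.

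Most lost responses were rises. Of the 350, 243 had risen in WT cells, with medians of 1.38 log2 units in WT and -0.05 in GCN2KO cells, and 107 had fallen, with medians of -1.16 and 0.18. For 327 of the 350, the upper end of the 95% interval of the GCN2KO response lay below 50% of the WT response. The sorting had already required a called interaction and a GCN2KO response that did not pass. This count is therefore partly fixed by the choice and does not test whether a response was absent. In 8 of the 350 the 5 GCN2KO HDW libraries nevertheless did not overlap the 5 GCN2KO unwounded libraries. How often this held over all genes tested was not counted. Of the 55 reduced responses, 45 had risen, by a median of 2.40 in WT and 0.72 in GCN2KO cells. Low counts were common: 269 of the 547 genes had a mean under 50 normalized read counts, among them 45 of the 50 gained responses. A mean of at least 50 was reached by 278 of the 547, against 12347 of the 16536 genes tested. Without GCN2KO unwounded replicates 3 and 5 there were 189 higher and 330 lower interactions, and 266 of the 350 lost responses were again lost. With the length score as a covariate the counts were 175 and 314, and 229 of the 350 were again lost.

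**Figure D2:**
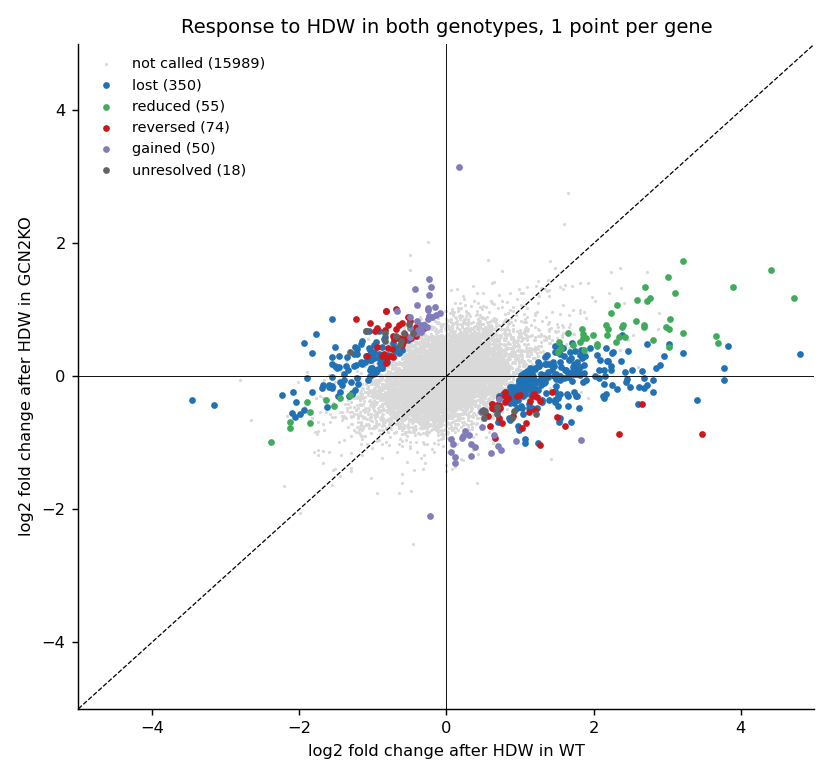
Each point is a gene, with its log2 fold change after HDW in WT cells on the horizontal axis and in GCN2KO cells on the vertical axis; the dashed line marks equal responses. The 350 lost responses lie along the horizontal axis, the 55 reduced ones between that axis and the dashed line, and the 74 reversed ones in the quadrants of opposite sign.

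The start level was already shifted for 312 of the 547 genes, 57.04%, where 17.9% of all genes tested were shifted, 9.13% upward and 8.72% downward. In 266 of them unwounded GCN2KO cells had moved in the direction of the WT response and in 46 away from it. The shift and the interaction share the 10 unwounded libraries, so part of this count follows from the arithmetic and no test was made of it. Among the 243 lost rises, 146 started toward the WT HDW level, 16 away from it and 81 were unshifted. After HDW, GCN2KO and WT cells differed past the thresholds for 104 of these 243 genes. Among all genes tested 16% differed after HDW, 7.86% upward and 8.13% downward. Of the 139 that did not differ past the thresholds, 107 had started toward the WT HDW level. The 107 lost falls divided into 41 toward, 5 away and 61 unshifted.

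A scale that sets the WT unwounded level to 0 and the WT HDW level to 1 shows where the GCN2KO cells stood, for the 203 lost rises of at least 1 log2 unit in WT. Unwounded GCN2KO cells had a median position of 1.005 on it. They lay within 0.5 of the WT HDW level for 86 genes and beyond it for 47, and within 0.5 of the WT unwounded level for 53 and beyond that for 17. Wounded GCN2KO cells had a median position of 0.978, with 89, 48, 48 and 18 genes in the same order. The 74 lost falls had medians of 0.573 unwounded and 0.627 after HDW. The lost rises held both genes at the WT HDW level before any wound and genes that stayed at the WT unwounded level after it. The 45 reduced rises had medians of 0.786 and 1.036. The position and the WT response that divides it share the WT unwounded libraries. Lost genes were chosen for a GCN2KO response that did not pass, so the closeness of their unwounded and HDW medians is partly fixed by the choice. The positions are a description, and no test was made of them.

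**Figure D3:**
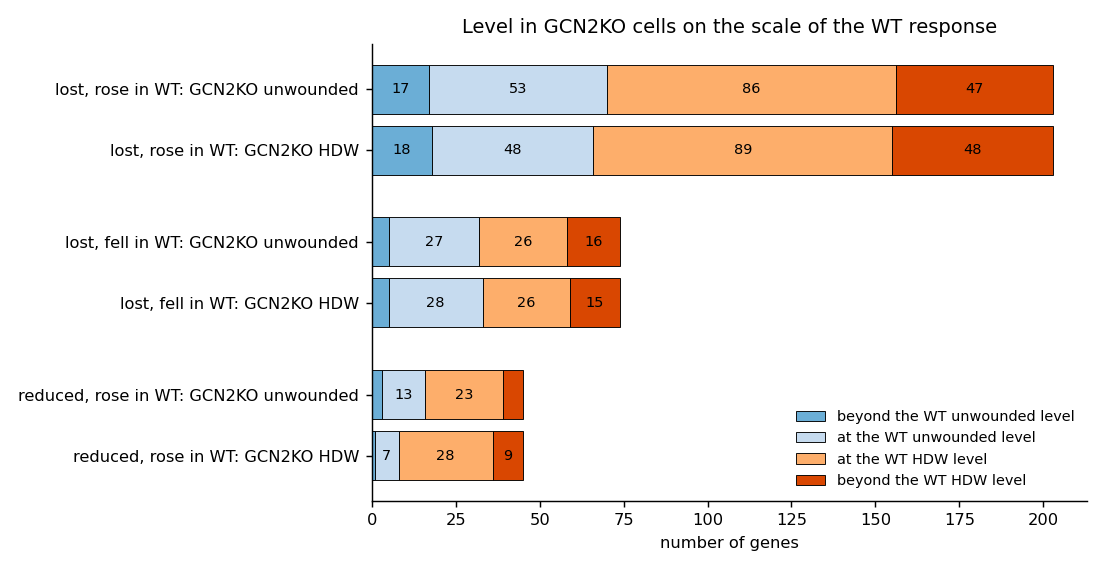
Bars count genes whose WT response was at least 1 log2 unit, by where the GCN2KO level lay between the WT unwounded level (0) and the WT HDW level (1); each level takes in 0.5 to either side. Of 203 lost rises, 86 were at and 47 beyond the WT HDW level in unwounded GCN2KO cells.

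Genes of the ATF4 program held the largest number of calls in any of the 21 gene lists examined. Of 38 tested members of the list of ATF4 targets and amino acid supply, 20 had a lower interaction, 0 a higher one and 18 were not called, against 2.15% lower and 1.16% higher among all genes. At the adjusted p alone 32 members were lower and 1 higher, against 12.5% and 11.2% of all genes tested. Of the 20 called, 18 were lost and 2 reversed, and 18 started toward the WT HDW level. The median over the list was 0.98 for HDW in WT, -0.10 for HDW in GCN2KO, 1.17 for GCN2KO against WT unwounded and -1.15 for the interaction, where the medians over all genes lay between -0.01 and 0.01. Without replicates 3 and 5 of GCN2KO unwounded, 19 members were lower and all 19 lost, and with the length score 20 were lower and all lost. The division into lost and reversed moved the other way in other alternatives: it was 15 and 6 without GCN2KO HDW replicate 5, 15 and 5 without WT unwounded replicate 1, 16 and 4 without WT unwounded replicate 3 or GCN2KO unwounded replicate 4, 13 and 7 with no filter on low counts and 15 and 5 with a mean of at least 50. Leaving out single libraries gave 20 to 22 lower and 0 higher members. As this list was chosen with results of these data known, its direction is not independent evidence.

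Asparagine synthetase, ASNS (chromosome 7, 97851677 to 97872542), was lowest in unwounded WT cells. The WT unwounded libraries held 795, 1354, 770.5, 1265 and 1182 normalized read counts and the WT HDW libraries 4088, 5438, 5069, 4153 and 4759. GCN2KO unwounded libraries held 4931, 4209, 5205, 3938 and 5064 and GCN2KO HDW libraries 3527, 3646, 3764, 3798 and 4199. Every GCN2KO library was above every unwounded WT library and the 2 GCN2KO groups overlapped. ASNS rose in WT cells by 2.13 (SE 0.13, adjusted p = 5.42e-12 by edgeR), against -0.30 (SE 0.12, adjusted p = 0.0542 by edgeR) in GCN2KO cells, and the interaction was -2.43 (SE 0.17, adjusted p = 9.22e-10 by edgeR).

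CTH (chromosome 1, 70411218 to 70439851), cystathionine gamma-lyase, which makes cysteine by transsulfuration, had the steepest start shift of the list. It held 57.6, 74.9, 44.7, 71.5 and 61.7 normalized read counts in unwounded WT cells, 325, 557, 486, 368 and 432 in wounded WT cells, 945, 1045, 1057, 986 and 1017 in GCN2KO unwounded and 897, 1028, 985, 931 and 1002 in GCN2KO HDW libraries. The GCN2KO libraries were above all WT libraries, wounded ones included. The interaction of CTH was -2.86 (SE 0.17, adjusted p = 5.69e-11 by edgeR), with responses of 2.80 in WT and -0.06 (SE 0.098, adjusted p = 0.682 by edgeR) in GCN2KO cells. The pseudokinase gene TRIB3 held 1109 ± 385 (SD, n = 5), 6856 ± 1953 (SD, n = 5), 14329 ± 377 (SD, n = 5) and 12789 ± 776 (SD, n = 5) in the same order, an interaction of -2.79 (SE 0.25, adjusted p = 2.98e-08 by edgeR). CHAC1, which degrades glutathione, held 175 ± 62.9 (SD, n = 5), 835 ± 95.5 (SD, n = 5), 1327 ± 65.6 (SD, n = 5) and 1416 ± 76.1 (SD, n = 5), an interaction of -2.15 (SE 0.18, adjusted p = 1.9e-08 by edgeR).

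The list holds 8 of the enzymes that charge tRNAs, of which 4 had a lower interaction and 4 (NARS1, SARS1, EPRS1 and CARS1) were not called. Among all genes tested 2.15% were lower. GARS1, the glycyl-tRNA synthetase, held 3979, 5069, 3934, 4998 and 4641 in WT unwounded and 10447, 12504, 11930, 10872 and 10878 in wounded WT cells, 15369, 15200, 14200, 14417 and 13823 in GCN2KO unwounded and 13159, 13550, 13625, 13605 and 14174 in GCN2KO HDW libraries. Its interaction was -1.42 (SE 0.096, adjusted p = 3.32e-10 by edgeR). AARS1, MARS1 and WARS1 were also lost, with interactions of -1.17, -1.29 and -1.25, and so was the tRNA exporter XPOT (-1.23). The serine and proline enzymes PSAT1 (-2.26) and PYCR1 (-1.20), the mitochondrial enzymes PCK2 (-1.81) and ALDH1L2 (-1.30), the lipoprotein receptor VLDLR (-1.45) and the secreted stanniocalcin STC2 (-1.68) had lost responses as well. DDIT3, a transcription factor of stress responses that shares 31.6% of its exonic bases with MARS1 on the other strand, had an interaction of -1.80. PYCR1 shares 29.73% of its exonic bases with another gene. CBS (-1.32) has a near-identical copy, and reads that match both may be missing, as the study counted uniquely mapped reads.

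SLC7A11, the cystine importer, was above all WT libraries in both GCN2KO groups. In WT unwounded cells the libraries held 759, 1508, 622, 1646 and 1284 normalized read counts, WT HDW 2902, 4772, 4033, 3187 and 3298, GCN2KO unwounded 8168, 9456, 8053, 8215 and 8702 and GCN2KO HDW 6776, 7086, 6808, 7100 and 7637. WT unwounded libraries differed by more than 2-fold among themselves, and ASNS, TRIB3 and CHAC1 were lowest in the same replicates 1 and 3. The interaction of SLC7A11 was -1.90 (SE 0.25, adjusted p = 5.93e-06 by edgeR), and the GCN2KO response of -0.27 (SE 0.17, adjusted p = 0.236 by edgeR) did not pass although the 5 wounded libraries lay below the 5 unwounded ones. MTHFD2 (interaction of -1.64) and PSPH (-1.12) were the reversed members. Without replicates 3 and 5 the GCN2KO response of MTHFD2 was -0.31 (adjusted p by edgeR = 0.0718), so that it counted as lost, and the interaction of PSPH was -0.96 and no longer called.

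The 18 members that were not called had WT responses of at most 0.98 on the log2 scale. PPP1R15A, which restores eIF2 activity, had 0.98 in WT, 0.10 in GCN2KO and an interaction of -0.88 (SE 0.13, adjusted p = 4.11e-05 by edgeR). GDF15, a stress cytokine, missed the fold threshold with -0.98 (SE 0.27, adjusted p = 0.00877 by edgeR), and the serine synthesis enzyme PHGDH had -0.93 (SE 0.17, adjusted p = 0.000342 by edgeR). ATF5 had the opposite sign, 0.54 (SE 0.1, adjusted p = 0.000465 by edgeR), with a WT response of -0.54, and shares 19.54% of its exonic bases with NUP62.

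The promoters of 3 lost members carry the letters TGATGNAA or their reverse complement, the consensus that ATF4 binds as a dimer with C/EBP proteins, in the 250 bases before the start site. They are shown 5′ to 3′ on the strand of the gene with the match in capitals (GRCh38.p14, from RefSeq), the ASNS match starting 68 bases before the start site, the CHAC1 match 209 and the AARS1 match 187.
ASNS, chr7:97872409-97872658, minus strand: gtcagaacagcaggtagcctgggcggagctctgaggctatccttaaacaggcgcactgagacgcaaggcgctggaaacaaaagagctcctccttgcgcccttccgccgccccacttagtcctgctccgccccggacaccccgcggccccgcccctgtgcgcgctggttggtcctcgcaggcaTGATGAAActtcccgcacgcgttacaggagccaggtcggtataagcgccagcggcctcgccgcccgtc
CHAC1, chr15:40953221-40953470, plus strand: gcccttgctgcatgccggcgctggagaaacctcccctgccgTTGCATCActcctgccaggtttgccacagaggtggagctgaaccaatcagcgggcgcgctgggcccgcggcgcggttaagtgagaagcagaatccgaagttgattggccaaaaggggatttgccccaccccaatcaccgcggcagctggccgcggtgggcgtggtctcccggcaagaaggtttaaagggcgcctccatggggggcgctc
AARS1, chr16:70289507-70289756, minus strand: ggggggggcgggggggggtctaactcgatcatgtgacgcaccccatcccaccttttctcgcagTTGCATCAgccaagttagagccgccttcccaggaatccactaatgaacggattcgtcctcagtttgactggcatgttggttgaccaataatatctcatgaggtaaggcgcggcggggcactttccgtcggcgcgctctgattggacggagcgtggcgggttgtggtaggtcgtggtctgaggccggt
The letters were searched on both strands in windows from 250 bases before to 50 bases after the start. Of 16 called members of the list with a sequence, 4 held a match (25%), as did 4 of the 16 members that were not called (25%). The share was 3.67% over all 27305 promoters and 1.74% over those of 11539 tested genes. Among the lost rises 9 of 167 (5.39%) held it. A match to 8 letters is a description of the sequence and does not show binding.

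**Figure D4:**
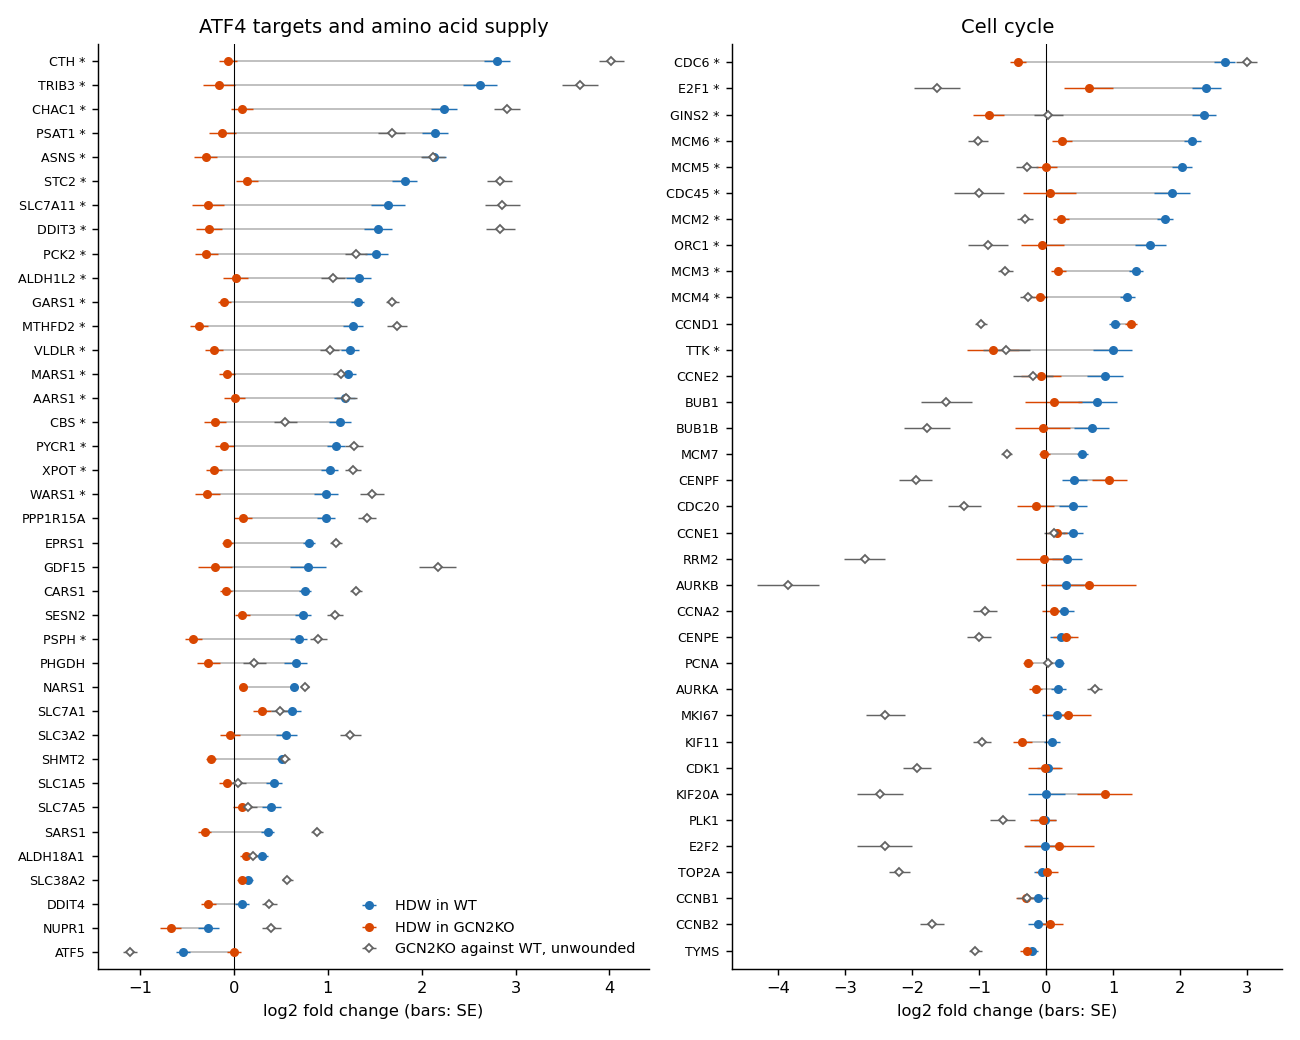
Each row is a list member, with its log2 fold change after HDW in WT (blue) and in GCN2KO cells (red) and between unwounded GCN2KO and WT cells (open diamonds), bars giving SE and asterisks called interactions. In the ATF4 list, 20 of 38 members are called and 18 of these start toward the WT HDW level; in the cell cycle list 11 of 35 are called, of which 1 starts toward it and 3 away from it.

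Genes of the cell cycle list also had lost responses, mostly from unshifted starts. Of 35 cell cycle genes, 11 had a lower interaction, 0 a higher one and 24 were not called, where 2.15% of all genes were lower and 1.16% higher. Of these 11, 9 were lost and 2 reversed, and 1 started toward the WT HDW level, 3 away and 7 were unshifted. List medians were 0.40 for HDW in WT, 0.00 for HDW in GCN2KO, -0.97 for GCN2KO against WT unwounded and -1.77 for GCN2KO against WT after HDW. The called genes were MCM2, MCM3, MCM4, MCM5 and MCM6 of the replicative helicase, its partners GINS2 and CDC45, the loading factors CDC6 and ORC1, the transcription factor E2F1 and the mitotic kinase TTK. Without replicates 3 and 5 of GCN2KO unwounded the count was again 11, and with the length score it was 9, as CDC45 and TTK were no longer called.

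MCM5 (chromosome 22, 35400134 to 35425431) held 372, 216, 313, 272 and 323 normalized read counts in WT unwounded and 1593, 760.4, 979.8, 1400 and 1349 in WT HDW libraries. GCN2KO unwounded libraries held 258, 244, 270.1, 232 and 217 and GCN2KO HDW libraries 249, 223, 235, 262 and 258. All WT HDW libraries were above all others, and the 2 GCN2KO groups overlapped each other and the WT unwounded group. The interaction was -2.02 (SE 0.22, adjusted p = 4.66e-07 by edgeR), with a GCN2KO response of 0.00 (SE 0.16, adjusted p = 0.988 by edgeR).

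MCM6 started away from the wounded level. It held 378, 325, 332, 306 and 340.2 normalized read counts in unwounded WT cells, 1817, 998, 1261, 1855 and 1638 in wounded WT cells, 186, 133, 179.8, 165 and 157 in GCN2KO unwounded and 183, 184, 196, 162 and 241 in GCN2KO HDW libraries. Its interaction was -1.94 (SE 0.2, adjusted p = 2.82e-07 by edgeR), and after HDW GCN2KO against WT stood at -2.96 (SE 0.14, adjusted p = 1.13e-14 by edgeR) on the log2 scale. The WT HDW libraries split in level, with replicates 2 and 3 lowest for MCM2, MCM5 and MCM6. MCM2 (-1.55), MCM3 (-1.16) and MCM4 (-1.31) had lost responses with unshifted starts. E2F1, at 9.07 normalized read counts in GCN2KO unwounded and 29.06 in WT unwounded cells, had an interaction of -1.76 (SE 0.45, adjusted p = 0.00641 by edgeR).

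CDC6, a loader of the helicase, was the called cell cycle gene that started toward the WT HDW level. Levels in WT unwounded were 43.7, 55.3, 61.6, 61.3 and 61.7 normalized read counts, WT HDW 404, 331, 321, 406 and 376, GCN2KO unwounded 362, 431, 533, 457 and 515 and GCN2KO HDW 429, 334, 378, 356 and 229.8. Unwounded GCN2KO libraries overlapped the WT HDW libraries and lay above all WT unwounded ones. The interaction was -3.08 (SE 0.2, adjusted p = 2.32e-10 by edgeR), and the fall in GCN2KO cells (-0.42, SE 0.12, adjusted p = 0.0116 by edgeR) counted it as reversed. Without replicates 3 and 5 that response was -0.29 (adjusted p by edgeR = 0.136), which counted as lost. GINS2, a helicase subunit, had a mean of 33.8 in both unwounded groups and an interaction of -3.21 (SE 0.29, adjusted p = 4.43e-08 by edgeR), and likewise changed from reversed to lost (GCN2KO response of -0.77, edgeR adjusted p = 0.0533).

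Other cell cycle genes were not called. MKI67 (0.17, SE 0.4, adjusted p = 0.807 by edgeR), TOP2A (0.07, SE 0.21, adjusted p = 0.846 by edgeR) and CDK1 (-0.06, SE 0.31, adjusted p = 0.921 by edgeR) had no called interaction and no called response in either genotype, and all 3 were lower in unwounded GCN2KO than in unwounded WT cells, at -2.40, -2.19 and -1.93 on the log2 scale. Cyclin D1, CCND1, rose in both, by 1.02 (SE 0.087, adjusted p = 1.6e-09 by edgeR) in WT and 1.26 (SE 0.088, adjusted p = 2.83e-09 by edgeR) in GCN2KO cells, with an interaction of 0.23 (95% interval -0.01 to 0.47).

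The interaction with the smallest adjusted p among lost rises was that of SH3KBP1 (chromosome X, 19533977 to 19887600), an adaptor in receptor endocytosis. WT unwounded libraries held 759, 778, 759.6, 715 and 751 normalized read counts and WT HDW libraries 2610, 2344, 2513, 2812 and 2557. GCN2KO unwounded libraries held 1158, 1137, 988, 1047 and 889 and GCN2KO HDW libraries 948, 1052, 1029, 1088 and 1220. Both GCN2KO groups lay between the WT groups, and they overlapped each other. The interaction was -1.74 (SE 0.1, adjusted p = 4.39e-11 by edgeR), the WT response 1.77 and the GCN2KO response 0.03 (SE 0.071, adjusted p = 0.747 by edgeR).

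FBXO32, an F-box protein of muscle atrophy and FOXO programs, had the smallest adjusted p among lost falls. In WT unwounded cells the libraries held 5262, 4648, 5211, 4643 and 4843 normalized read counts, WT HDW 1710, 1741, 1703, 1514 and 1648, GCN2KO unwounded 1219, 1490, 1421, 1477 and 1212 and GCN2KO HDW 1358, 1095, 1235, 1272 and 1105. All GCN2KO libraries were below all WT libraries. The interaction was 1.40 (SE 0.099, adjusted p = 8.52e-10 by edgeR), with -1.56 in WT and -0.17 (SE 0.071, adjusted p = 0.069 by edgeR) in GCN2KO cells. Without replicates 3 and 5 the latter was -0.22 (adjusted p by edgeR = 0.0465), which counted as reduced, as it did without GCN2KO unwounded replicate 1 or 5 or GCN2KO HDW replicate 1 alone. MSI2, an RNA-binding protein, fell in WT cells from 2965 ± 87.0 (SD, n = 5) to 1460 ± 161 (SD, n = 5) and was at 1776 ± 142 (SD, n = 5) and 1901 ± 70.3 (SD, n = 5) in GCN2KO cells, an interaction of 1.12 (SE 0.092, adjusted p = 8.45e-09 by edgeR). The transcription factors ZNF488 (1.43, SE 0.13, adjusted p = 5.06e-08 by edgeR) and MYCL (1.04, SE 0.1, adjusted p = 1.58e-07 by edgeR) both started low, at -1.63 and -1.63 relative to unwounded WT cells. Of 21 FOXO-linked genes, FBXO32 and PDK4 were called, both higher, where 1.16% of all genes were. PDK4 was not called by DESeq2 or in thinned counts, and its mean was under 50.

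**Figure D5:**
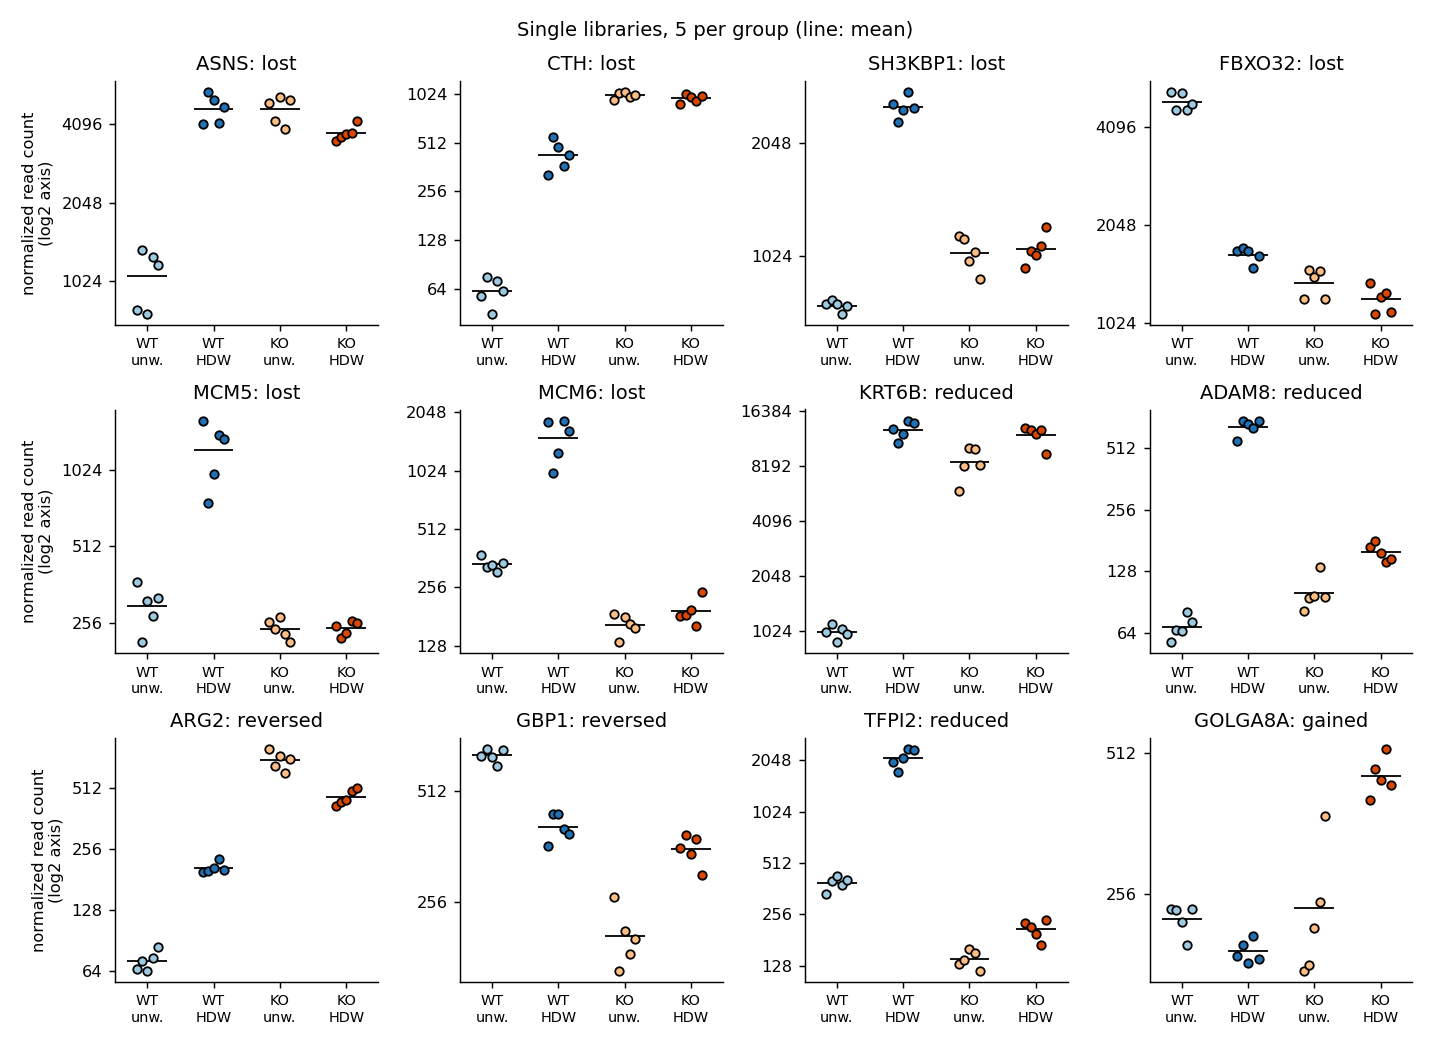
Each point is the normalized read count of a library on a log2 axis, with lines at the mean of 5 libraries and the kind of interaction in the title. ASNS, CTH and FBXO32 are at or past the WT HDW level in unwounded GCN2KO (KO) cells, SH3KBP1, MCM5 and ADAM8 stay nearer to the WT unwounded than to the WT HDW level, and ARG2 and GBP1 change in opposite directions in the genotypes.

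Keratin 6B, KRT6B (chromosome 12, 52446651 to 52452146), a keratin of wounded and overgrowing epidermis, had the smallest adjusted p of all interactions. Levels in WT unwounded were 1014, 1112, 886, 1044 and 981 normalized read counts and WT HDW libraries 13071, 10947, 12324, 14577 and 14084. GCN2KO unwounded libraries held 5978, 8169, 10260, 10224 and 8315 and GCN2KO HDW libraries 13296, 12923, 12240, 12977 and 9523. Unwounded GCN2KO cells stood well above unwounded WT cells, and the wounded groups overlapped. KRT6B rose by 3.69 (SE 0.13, adjusted p = 5.62e-16 by edgeR) in WT and by 0.50 (SE 0.11, adjusted p = 0.00168 by edgeR) in GCN2KO cells, an interaction of -3.19 (SE 0.17, adjusted p = 9.76e-12 by edgeR). The near-identical KRT6A (-0.78, SE 0.077, adjusted p = 1.27e-07 by edgeR) and KRT6C (-0.93, SE 0.09, adjusted p = 1.03e-07 by edgeR) had interactions of the same sign below the fold threshold, and reads can be misassigned among the 3. KRT6B was the only called gene of 6 wound keratins, where 3.31% of all genes tested were called. KRT16 (-0.47) and KRT17 (-0.67) were not called, with starts of 2.27 and 1.75.

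Of 8 called genes for proteases, their inhibitors and plasminogen activation, 5 kept a smaller rise in GCN2KO cells. ADAM8 (chromosome 10, 133262420 to 133276868), a membrane metalloprotease, held 57.6, 66.0, 65.2, 80.8 and 72.3 normalized read counts in unwounded WT cells, 557, 697, 668, 638 and 691 in wounded WT cells, 81.8, 95.04, 96.5, 134 and 96.2 in GCN2KO unwounded and 168, 181, 157, 142 and 146 in GCN2KO HDW libraries. No group overlapped another. The interaction was -2.57 (SE 0.16, adjusted p = 1.28e-10 by edgeR), with 3.22 (SE 0.11, adjusted p = 5.62e-16 by edgeR) in WT and 0.65 (SE 0.11, adjusted p = 0.000154 by edgeR) in GCN2KO cells. The gelatinase MMP9 rose less from a lower start. It held 117 ± 22.1 (SD, n = 5) and 735 ± 162 (SD, n = 5) in WT and 18.9 ± 6.10 (SD, n = 5) and 30.8 ± 6.62 (SD, n = 5) in GCN2KO cells, an interaction of -1.94 (SE 0.34, adjusted p = 0.000174 by edgeR), and it counted as lost without replicates 3 and 5. MMP9 shares 18.41% of its exonic bases with SLC12A5-AS1.

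Of 25 matrix proteases and TIMPs tested, 4 had a lower interaction (ADAM8, MMP9, MMP10 and TIMP4) and 1 a higher one (MMP13), and MMP10, TIMP4 and MMP13 were at 15.2 normalized read counts or fewer on average in GCN2KO cells. TIMP4 was not called with the length score, by DESeq2 or in thinned counts, and MMP13 not in thinned counts or without GCN2KO HDW replicate 5. Among 14 plasminogen and clotting genes, TFPI2, PLAT and SERPINB2 were lower, and none was higher. For both lists, the shares over all genes tested were 2.15% lower and 1.16% higher. SERPINB2, which inhibits plasminogen activators, held 1107, 979.6, 1113, 916 and 1063 in unwounded WT cells, 8927, 6610, 8202, 10704 and 10103 in wounded WT cells, 2003, 2270, 3843, 2818 and 2939 in GCN2KO unwounded and 8189, 7567, 6394, 6972 and 4242 in GCN2KO HDW libraries. It rose in both genotypes, by 3.11 and 1.26, with an interaction of -1.84 (SE 0.23, adjusted p = 2.81e-06 by edgeR). PLAT, tissue plasminogen activator, had 2.39 in WT and 0.74 in GCN2KO cells, an interaction of -1.65 (SE 0.2, adjusted p = 2.14e-06 by edgeR).

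TFPI2, an inhibitor of plasmin and clotting proteases, started away from the wounded level. Its WT unwounded libraries held 336, 403, 429.9, 381 and 409.6 normalized read counts, WT HDW 1992, 1745, 2107, 2381 and 2357, GCN2KO unwounded 132, 138, 159.6, 152 and 119.9 and GCN2KO HDW 228, 217, 196, 170.5 and 238. Even wounded GCN2KO cells were below unwounded WT cells in every library. The interaction was -1.84 (SE 0.14, adjusted p = 3.85e-09 by edgeR) and the GCN2KO response 0.59 (SE 0.11, adjusted p = 0.00028 by edgeR). OSGIN1, an NRF2 target, sat at the threshold with 1.00 (SE 0.26, adjusted p = 0.00672 by edgeR) and fell below it in 12 alternatives. It and SLC7A11 were the called genes of 26 NRF2 targets, where 3.31% of all genes tested were called.

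The growth factor genes EREG and AREG, which encode EGF receptor ligands, were the called members of 12 EGF ligands and receptors. Both were lower, as were 2.15% of all genes tested, and 1.16% of all were higher. EREG held 2357 ± 361 (SD, n = 5) in unwounded WT cells, 6149 ± 971 (SD, n = 5) in wounded WT cells, 5572 ± 304 (SD, n = 5) in GCN2KO unwounded and 5546 ± 256 (SD, n = 5) in GCN2KO HDW cells, a lost rise with an interaction of -1.39 (SE 0.13, adjusted p = 9.11e-08 by edgeR). AREG had an interaction of -1.26 (SE 0.14, adjusted p = 3.7e-07 by edgeR), and its GCN2KO response was -0.30 (SE 0.095, adjusted p = 0.0188 by edgeR), or -0.16 (adjusted p by edgeR = 0.236) without replicates 3 and 5. HBEGF, another ligand, rose in both genotypes and missed the fold threshold with -0.91 (SE 0.13, adjusted p = 1.58e-05 by edgeR). Of 18 ERK feedback genes, which ERK signaling induces and many of which restrain it, PHLDA1 (-1.05, SE 0.079, adjusted p = 2.28e-09 by edgeR), ETV5 (-1.37, SE 0.22, adjusted p = 9.82e-05 by edgeR) and SPRY4 (-1.61, SE 0.27, adjusted p = 0.000116 by edgeR) were lower, and all 3 started toward the WT HDW level.

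Of 6 tested genes for small proline-rich proteins, precursors of the cornified envelope, 4 had a lower interaction and 2 (SPRR1A and SPRR1B) were not called. Over all genes tested, 2.15% were lower and 1.16% higher. SPRR2D held 165, 162, 130.4, 117 and 139 normalized read counts in unwounded WT cells, 1190, 977, 1011, 1191 and 1289 in wounded WT cells, 3057, 3981, 5332, 5008 and 3755 in GCN2KO unwounded and 6725, 5857, 6015, 6065 and 4105 in GCN2KO HDW libraries. Every GCN2KO library exceeded every WT library. Its interaction was -2.57 (SE 0.21, adjusted p = 6.09e-09 by edgeR), against a start shift of 4.92. SPRR2A (-1.55, start shift of 5.47), SPRR2E (-1.48, 5.49) and SPRR3 (-1.03, 4.41) completed the 4 lower members of 23 cornification genes, none being higher. SPRR3 was not called in 7 of 29 alternatives. SPRR2 genes are near-identical copies, and the study counted uniquely mapped reads, so reads that match more than 1 copy may be missing. SEMA7A, a semaphorin, rose in both genotypes, by 2.70 and 1.35 (interaction of -1.35, SE 0.23, adjusted p = 0.000131 by edgeR), and with PLXND1, at 2.03 to 4.05 normalized read counts on average in GCN2KO cells, made the 2 called genes of 33 semaphorins, plexins and ephrins. NREP and METTL7A fell in both genotypes with interactions of 1.15 (SE 0.14, adjusted p = 3.72e-06 by edgeR) and 1.43 (SE 0.18, adjusted p = 4.95e-06 by edgeR), and NREP shares 22.72% of its exonic bases with STARD4-AS1.

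Fewer responses were reversed without the GCN2KO unwounded libraries that stood apart. Of the 74, 32 had GCN2KO groups that did not overlap, 39 started toward the WT HDW level and 1 away from it. The sorting itself required a GCN2KO response past the adjusted p. The share of all genes tested whose GCN2KO groups did not overlap was not counted, so the 32 cannot be set against it. Without GCN2KO unwounded replicates 3 and 5 there were 46 reversed responses, of which 31 were among the 74, and with the length score 38, of which 22 were. ARG2, GBP1 and CXCL1 were reversed under both, and LAMB1, CXCL6, AREG, CDC6, GINS2 and MTHFD2 under neither.

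ARG2 (chromosome 14, 67619920 to 67651708), the mitochondrial arginase, rose in WT and fell in GCN2KO cells. WT unwounded libraries held 65.6, 71.4, 64.0, 74.3 and 83.9 normalized read counts, WT HDW 196, 199, 206, 229 and 201, GCN2KO unwounded 797, 661, 737, 609 and 715 and GCN2KO HDW 414, 438, 448, 495 and 513. No group overlapped another, and the GCN2KO libraries were all above the WT libraries. The responses were 1.5 (SE 0.1, adjusted p = 4.29e-11 by edgeR) and -0.61 (SE 0.076, adjusted p = 4.76e-06 by edgeR), and the interaction -2.11 (SE 0.13, adjusted p = 5.69e-11 by edgeR). VTI1B, on the opposite strand, covers 39.58% of the exonic bases of ARG2, and the counting is not stated to use strand. ARG2 was the only called gene of 15 arginine and polyamine enzymes, where 3.31% of all genes tested were called.

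GBP1 (chromosome 1, 89051882 to 89065360), an interferon-induced GTPase, did the opposite. In WT unwounded cells the libraries held 638, 667, 636, 602 and 662 normalized read counts, WT HDW 363, 445, 444, 404 and 394, GCN2KO unwounded 265, 167, 214, 186 and 204 and GCN2KO HDW 360.3, 391, 347, 381 and 304. It fell by 0.64 on the log2 scale in WT and rose by 0.78 (SE 0.095, adjusted p = 3.33e-06 by edgeR) in GCN2KO cells, an interaction of 1.42 (SE 0.13, adjusted p = 4.27e-08 by edgeR), and was the only called gene of 33 interferon-stimulated genes with all libraries. GBP4 was called as well without GCN2KO unwounded replicate 1, GCN2KO HDW replicate 1 or GCN2KO HDW replicate 4. The neutrophil chemokine CXCL1 had the same shape, with 1153 ± 125 (SD, n = 5) and 717 ± 51.8 (SD, n = 5) in WT and 430.3 ± 104 (SD, n = 5) and 706 ± 62.4 (SD, n = 5) in GCN2KO cells, an interaction of 1.40 (SE 0.16, adjusted p = 6.81e-07 by edgeR). The wounded groups overlapped, with a difference after HDW of -0.02 (SE 0.11, adjusted p = 0.874 by edgeR). CXCL6 (1.38) and TNF (1.11) were the other higher members of 21 cytokines and chemokines, TNF with neither response past the threshold and not called in 18 of 29 alternatives. Over all genes tested, 1.16% were higher and 2.15% lower.

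LAMB1, the laminin beta 1 chain, was the only called gene of 23 matrix genes with all libraries, where 3.31% of all genes tested were called. It held 9616, 8556, 10343, 8312 and 8956 in unwounded WT cells, 4986, 4970, 5035, 5057 and 4745 in wounded WT cells, 3919, 3999, 2959, 3782 and 2886 in GCN2KO unwounded and 3985, 4205, 4365, 4148 and 4861 in GCN2KO HDW libraries. In GCN2KO unwounded cells replicates 3 and 5 were the lowest. The interaction was 1.18 (SE 0.12, adjusted p = 1.27e-07 by edgeR) with all libraries, 1.01 without those 2 and 0.96 with the length score, where it was not called. Without those 2 libraries the GCN2KO response was 0.13 (adjusted p by edgeR = 0.192). The list had no single direction: with all libraries 5 members were higher and 4 lower at the adjusted p alone, and its median interaction was 0.14. Without those 2 libraries 1 matrix gene was called higher and 2 lower, with a median of 0.02. With the length score 0 were higher and 2 lower, with a median of -0.06. The 2 lower genes were LAMB3, a chain of laminin 332, and TNC, tenascin C, which with all libraries missed the fold threshold at -0.93 (SE 0.14, adjusted p = 4.11e-05 by edgeR) and -0.94 (SE 0.3, adjusted p = 0.0278 by edgeR). TNC was also called without any 1 of 6 single libraries: WT unwounded replicate 2 or 4, WT HDW replicate 1 or 4, GCN2KO unwounded replicate 3 or GCN2KO HDW replicate 5.

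Gained responses rested on few reads. Only 5 of the 50 had a mean of at least 50 normalized read counts, and 1 of these was a protein-coding gene with a symbol: GOLGA8A, a golgin from a family of near-identical duplicated copies. It held 238, 237, 223, 199.8 and 238 in unwounded WT cells, 189.7, 200.2, 183, 208 and 187 in wounded WT cells, 176, 181, 217, 246 and 376 in GCN2KO unwounded and 406, 474, 449, 522 and 437 in GCN2KO HDW libraries. Wounded GCN2KO libraries were above all others, and replicate 5 was the highest of the unwounded ones. The interaction was 1.13 (SE 0.2, adjusted p = 0.000195 by edgeR). PDK4, a kinase that restrains pyruvate oxidation, held 1.14, 1.53, 2.63, 0.84 and 4.22 normalized read counts in GCN2KO unwounded and 26.7, 20.1, 22.6, 18.4 and 12.4 in GCN2KO HDW libraries, against means of 5.71 in WT unwounded and 6.08 in WT HDW cells, an interaction of 2.98 (SE 0.66, adjusted p = 0.00186 by edgeR). When libraries were thinned to the smallest total, 26 gained responses were found.

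With all libraries, none of 22 early response transcription factors, 17 integrins, 22 cholesterol synthesis genes or 17 YAP and TEAD targets was called, although 3 higher and 4 lower, 1 and 1, 0 and 9, and 5 and 2 of them passed the adjusted p alone. Over all genes tested, 3.31% were called, and 11.2% were higher and 12.5% lower at the adjusted p alone. The nuclear receptor gene NR4A2, at 0.92 (SE 0.24, adjusted p = 0.00649 by edgeR), was called higher in 4 of 29 alternatives, in thinned counts and without WT unwounded replicate 3, GCN2KO unwounded replicate 4 or GCN2KO HDW replicate 5. EGR1 rose in both genotypes, by 1.05 (SE 0.12, adjusted p = 1.78e-07 by edgeR) and 0.94 (SE 0.12, adjusted p = 8.58e-06 by edgeR), from a GCN2KO start of -1.67, and its interaction was -0.10 (95% interval -0.44 to 0.23). The matricellular genes CCN1 and CCN2, which YAP controls, had interactions of 0.14 (95% interval -0.31 to 0.60) and 0.08 (95% interval -0.59 to 0.74). FOSL1, an AP-1 subunit, rose by 1.59 and 1.07 with an interaction of -0.51 (SE 0.11, adjusted p = 0.00112 by edgeR). Of the 465 genes that WT cells raised past both thresholds, 42 were also raised past both in GCN2KO cells, 31 of them with no called interaction, and 265 (57%) had a called interaction. For the 288 that fell these numbers were 17, 17 and 87 (30.2%). The WT libraries that chose these genes also enter the interaction, so these shares are partly fixed by the choice.

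The AP-1 consensus TGANTCA occurred in the promoter windows of 6 of 25 reduced rises with a sequence (24%) and 12 of 167 lost rises (7.19%). It occurred in 4 of 58 lost falls (6.9%), 1 of 25 reversed rises (4%) and 2 of 27 reversed falls (7.41%). The share was 4.96% of tested genes and 7.76% of all promoters. For TGACGTCA, the CRE consensus, reduced rises had 1 of 25, lost rises 4 of 167 and reversed rises 3 of 25 (12%). Its share was 3.18% of tested genes and 1.98% of all promoters. For the TEAD letters GGAATG these were 2 of 25, 17 of 167 and 2 of 25, with 10.9% and 14%. The counts are small, and no difference in motif share was tested.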

How the data were processed

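RNA-seq was made from 20 libraries of NTERT cells, 5 in each of 4 groups taken from the labels. The authors deposited whole-number counts per gene from featureCounts after Trimmomatic and STAR on GRCh38, as named in the submitters' processing notes and the study's methods. Strand and overlap settings and the annotation release are not given in the sources used here. Of 57500 genes listed, 56410 were matched to GENCODE for coordinates.

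Counts were fitted with the quasi-likelihood test of edgeR 4.0.16 in R 4.3.3, with TMM scaling, all 4 groups in 1 fit and Benjamini-Hochberg adjustment over 16536 genes. These passed a filter of 10 counts at the median depth in enough libraries for 1 group and 15 counts in all. Normalized read counts are counts scaled to the TMM library sizes. Named genes were EIF2AK4, the called protein-coding genes with a mean of at least 50 and the smallest interaction adjusted p (lost, 4 that rose and 4 that fell in WT; reduced and reversed, 2 and 2; gained, 3 and 3; start toward and away, 2 and 2 each), and the 2 leading called members of each of 21 lists. Further list members, the near-identical keratins and the promoters printed were chosen after their values were seen. Some items that the rule names are not reported here. Members and lists were chosen with earlier results of these data known. The position scale is the log2 GCN2KO level less WT unwounded, divided by the WT response. On simulated counts, 200 of 200 genes changed by 1.5 on the log2 scale were recovered with 4 false calls over 16348 genes. The 200 were drawn from genes with a mean above 50, and all 4 groups were given the same spread. Recovery at lower counts, or with the wider spread of the GCN2KO libraries, was therefore not tested. Alternatives were DESeq2 1.42.0, other scalings and filters, thinned counts, a replicate block, responses fitted separately in each genotype and leaving out each library. Leaving out the GCN2KO unwounded pair and the length covariate were added after seeing the data.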

Additional observations from a re-analysis of the deposited data

Results flagged for a closer look

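For 35 named genes the 2 genotypes answered HDW differently by the interaction test (edgeR adjusted p of at most 0.05, log2 difference of at least 1). The lost responses had differences of -1.74 for SH3KBP1, -2.86 for CTH, -1.42 for GARS1, -2.43 for ASNS, 1.40 for FBXO32, 1.12 for MSI2, 1.43 for ZNF488, 1.04 for MYCL, 1.00 for OSGIN1, -1.94 for MCM6, -1.05 for PHLDA1, -1.39 for EREG, -1.90 for SLC7A11 and -2.24 for PLXND1. The reduced responses had -3.19 for KRT6B, -2.57 for ADAM8, 1.15 for NREP, 1.43 for METTL7A, -1.84 for TFPI2, -1.37 for ETV5, -1.94 for MMP9, -1.65 for PLAT, -2.57 for SPRR2D, -1.55 for SPRR2A and -1.35 for SEMA7A. Reversed responses had -2.11 for ARG2, -3.08 for CDC6, 1.42 for GBP1, 1.18 for LAMB1, -1.26 for AREG, 1.40 for CXCL1, 1.38 for CXCL6 and -3.21 for GINS2, and gained ones 1.13 for GOLGA8A and 2.98 for PDK4. Over all genes, 192 differed upward and 355 downward.

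A single library lay far from the other 4 of its group, by Dixon's test, in 4 of 148 groups of normalized read counts examined, where chance flags about 1 in 20. These were KRT6B in GCN2KO HDW replicate 5 (9523), ADAM8 in GCN2KO unwounded replicate 4 (133.6), ARG2 in WT HDW replicate 4 (229.3) and LAMB1 in WT HDW replicate 5 (4745). Leaving out any 1 of the 20 libraries kept these 4 interactions past both thresholds.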

How the results depend on the processing

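DESeq2 gave 171 higher and 327 lower interactions, scaling by library size alone 246 and 305, no filter 196 and 384, and counts thinned to the smallest library 140 and 295. Requiring a mean of 50 left 73 higher, 207 lower, 160 lost, 5 gained and 187 start shifted. The adjusted p alone gave 1851 higher, 2075 lower, 1880 lost, 353 reduced, 407 reversed, 1076 gained, 44 enlarged and 3069 start shifted, since no fold was required. Thinning gave 26 gained. Fitting the response of each genotype separately, with the interaction calls kept, gave 327 lost, 46 reduced, 64 reversed and 34 gained. Of these, 297, 46, 53 and 31 were of the same kind in the main fit. The other 2 alternatives were chosen after seeing the data: without GCN2KO unwounded replicates 3 and 5, 46 were reversed, and with the length score 35 were reduced, 38 reversed, 29 gained and 1 enlarged. The cause of these changes was not tested. Leaving out 1 library gave 171 to 217 higher, 323 to 371 lower, 319 to 382 lost, 46 to 64 reduced, 52 to 86 reversed, 40 to 72 gained, 0 enlarged and 279 to 333 shifted.

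Same-numbered libraries of 2 groups had deviations that correlated with a mean r of -0.199 to 0.058 and single values of -0.615 to 0.299. At most 3 of the 5 pairs exceeded 0.1 in any pair of groups, and no source says that a number marks a shared culture, so the numbers were not taken as pairs. With a replicate block, 182 interactions were higher and 346 lower, 175 and 342 of them among the 192 and 355, and 332 were lost.

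Of 1105 values of named genes under alternatives, 1086 kept direction and call. The sign of the EIF2AK4 interaction, which was not called, turned without WT unwounded replicate 3 (-0.001), GCN2KO unwounded replicate 1 (-0.019), GCN2KO HDW replicate 1 (-0.010) and GCN2KO HDW replicate 4 (-0.013), with a range of -0.019 to 0.051 over single libraries left out. Calls were lost for OSGIN1 in 12 alternatives (0.897 to 0.996), LAMB1 with the length score (0.955), MYCL without GCN2KO unwounded replicate 2 (0.998) and PHLDA1 by library size alone (-0.982). Not counted among these changes, PDK4 was not called in 3 of 29 alternatives, and PLXND1 and CXCL6 in 1 each. Genes with few reads limit the count, as 269 of the 547 had a mean under 50.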
